A study of Homo sapiens with 9 samples.

Results

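The genes described here encode enzymes that hold zinc or belong to zinc enzyme families: peptidases, hydrolases, carbonic anhydrases, deaminases, dehydrogenases, glyoxalases, prenyltransferase subunits and nucleases. They were chosen by symbol from a list of 53 genes, all of which were in the table of 57766 genes, and 50 were among the 15774 genes tested, those that reached 1 RPKM in 3 or more libraries. RPKM divides the reads of a gene by its length and by the size of the library, so levels can be compared between genes. CA9, GDA and DPYS were not tested, and neither was a second row under the symbol ACE, which was listed at 0 in every library. The cells were of the human embryonic kidney line HEK293, in its Freestyle form, which grows in suspension. All groups were first held at 1000000 cells per mL for 18 h or more, then washed with PBS, brought to 4000000 cells per mL and kept for 36 h in a 12-well plate in 1 of 3 media: untreated Freestyle medium (full), the same medium stripped of Zn(II) (depleted), or stripped medium to which Zn(II) was returned (repleted). EDTA, a metal chelator, is named in the labels as a wash that preceded plating. The labels describe the 3 libraries of each group as biological triplicates, so that each comparison is of 1 line in 3 against 3 libraries, and all values below are mean RPKM ± SD (n = 3) unless said otherwise.

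Zinc binds tightly to enzymes and acts there in one of several ways: it activates a water molecule for hydrolysis, polarises a substrate, or holds the fold together. In most metallopeptidases the metal sits on side chains from a short stretch of the protein, while carbonic anhydrases hold it on histidines brought together by the fold. Loss of cellular zinc is known to shut off the metallothionein genes, which the zinc-sensing factor MTF1 drives through metal response elements, and the supply of zinc to many exported enzymes depends on zinc transporters of the secretory pathway.

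Coding sequences of the best known zinc-binding stretches are shown because they mark the families into which the results fall. They were read from GENCODE 29 transcripts (GRCh38), with 3 codons on either side and the codons of the stretch in capitals. In the HExxH stretch (histidine, glutamate, any pair of residues, histidine) both histidines bind zinc and the glutamate is catalytic. DPP3 has 1 residue more between the glutamate and the last histidine, M16 peptidases have the order inverted, and metallo-beta-lactamase fold nucleases use HxHxDH.
LTA4H, codons 296 to 300: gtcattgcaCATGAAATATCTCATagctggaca
NPEPPS, codons 352 to 356: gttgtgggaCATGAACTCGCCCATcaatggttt
NLN, codons 497 to 501: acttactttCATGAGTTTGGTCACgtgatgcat
THOP1, codons 473 to 477: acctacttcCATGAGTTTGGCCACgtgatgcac
MME, codons 584 to 588: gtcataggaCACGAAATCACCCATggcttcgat
ZMPSTE24, codons 335 to 339: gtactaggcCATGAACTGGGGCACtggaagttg
MBTPS2, codons 171 to 175: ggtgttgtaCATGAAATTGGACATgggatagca
DPP3, codons 470 to 475: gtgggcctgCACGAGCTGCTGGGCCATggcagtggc
PITRM1, codons 104 to 108: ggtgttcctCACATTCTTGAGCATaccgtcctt
ELAC2, codons 546 to 551: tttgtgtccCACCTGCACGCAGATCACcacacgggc
Of 19479 coding genes, 3.542% held HExxH somewhere in the protein, 2.336% held HExxxH, 2.741% held HxxEH and 0.1951% held HxHxDH, so the shorter patterns also occur outside these families. Of the 14 members in which HExxH was found, 9 fell in depleted medium (LTA4H, RNPEP, NLN, THOP1, ECE1, ECE2, ACE, MME and MBTPS2), 2 rose (NPEPPS and ZMPSTE24) and 3 were not called (ERAP1, ERAP2 and LNPEP), with the values below. Of all genes tested, 31.2% were lower and 29.8% higher in the same comparison with full medium. The calls of ECE1, ECE2 and ACE were lost after median centring. The count by HExxH was not planned beforehand, and calls of genes outside the members that hold the stretch were not counted.

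Genes known to respond to zinc were examined first as a check of the media. The metallothionein MT2A, a zinc-storing protein, was at 188, 201 and 184 RPKM in full, 6.57, 5.72 and 7.08 in depleted, and 93.6, 90.1 and 96.7 in repleted medium. The groups did not overlap, and the repleted libraries lay below the full ones (adjusted p = 0.00114, limma). MT1X was at 152, 163 and 139 RPKM in full, 1.71, 2.48 and 1.16 in depleted, and 70.36, 70.04 and 56.36 in repleted medium. MT1F was at 45.75, 48.98 and 45.81 RPKM in full, 1.23, 1.86 and 1.24 in depleted, and 20.5, 15.3 and 23.3 in repleted medium. All 3 metallothionein genes thus lay in the same order, with repleted libraries between the other groups. The zinc exporter SLC30A1 was at 16.04, 16.54 and 16.76 RPKM in full, 7.14, 6.62 and 7.04 in depleted, and 11.2, 11.6 and 12.4 in repleted medium. The zinc importer SLC39A10 was at 16.5, 17.7 and 17.5 RPKM in full, 50.3, 48.6 and 50.9 in depleted, and 14.8, 15.4 and 14.6 in repleted medium. Estimated depth ranged from 16900000 to 23400000 reads per library. Pearson correlations of log2 levels between libraries were 0.983 to 0.9874 within a group, 0.9819 to 0.9858 between full and repleted libraries, and 0.9356 to 0.941 between depleted and full libraries. Of 7 markers of the embryonic kidney line, all were detected and PAX2, LHX1 and NEFL fell while VIM and CDH2 rose in depleted medium. Their summed level was 664 to 673 RPKM in full, 722 to 748 in depleted and 668 to 683 in repleted libraries. Of 18 markers of other lineages, 10 were under 1 RPKM in every library and HBB and INS were at 0. Their sum was 46.5 to 54.3 RPKM in full, 32.3 to 35.9 in depleted and 46.7 to 50.1 in repleted libraries, with COL1A1, LUM and ACTA2 lower and HBA1 higher in depleted medium. The part of these shifts in the results below was not tested.

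In depleted against full medium, 22 zinc enzyme genes fell and 15 rose among the 50 tested, by limma with Benjamini-Hochberg adjustment over all genes tested and an adjusted p under 0.05. This was 74.0% of the members, against 60.9% of all genes tested, of which 29.8% were higher and 31.2% lower. The falls were the larger changes. At a log2 change of at least 0.5, 12 members were lower and 4 higher, against a background of 19.2% lower and 13.8% higher. At a log2 change of at least 1, 7 members were lower (CA11, CA2, CA12, SORD, CDA, THOP1 and MBTPS2) and 0 were higher, against 6.81% and 3.29% of all genes. The libraries of the 2 groups did not overlap for 39 members, against 67.6% of all genes. The median log2 change of the 50 was -0.03, and that of all genes tested was 0.000842. All log2 changes are of log2(RPKM + 1), which understates the change of weakly expressed genes. In these bulk samples, fewer cells that express a gene and less RNA per cell cannot be told apart. After centring each library on its median, which moved the comparison by 0.0461 on the log2 scale, 16 members were higher and 18 lower. Of all 15774 genes tested, 5186 were then higher and 4498 lower.

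With Zn(II) returned, most members lay closer to their levels in full medium: log2 differences between repleted and full medium ran from -0.29 (CDA) to 0.28 (CA5B), and those between depleted and full medium from -2.05 (CA11) to 0.61 (FNTA). In repleted against full medium, 0 of 50 members passed the test, against a background of 0.0317% (0% higher and 0.0317% lower). At an unadjusted p under 0.05 in limma there were 3 members, CPE, CA5B and ZMPSTE24, and 4 had libraries that did not overlap between full and repleted medium, these 3 and ACY1. Of all genes tested, 7.76% had an unadjusted p under 0.05 in this comparison and 12.4% had no overlap, so neither count of members stood above the background. In depleted against repleted medium, 21 members were lower and 15 higher, against a background of 60.7% called (29.5% higher and 31.2% lower). The depleted libraries enter both comparisons, so these are not independent counts. Summed over all members, the level was 1672 ± 28.9 RPKM in full, 1619 ± 12.9 in depleted and 1647 ± 29.9 in repleted medium, so the sum differed by much less than many of its parts. GLO1 alone held 300.3 ± 4.58 of this sum in full medium.

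**Figure D1:**
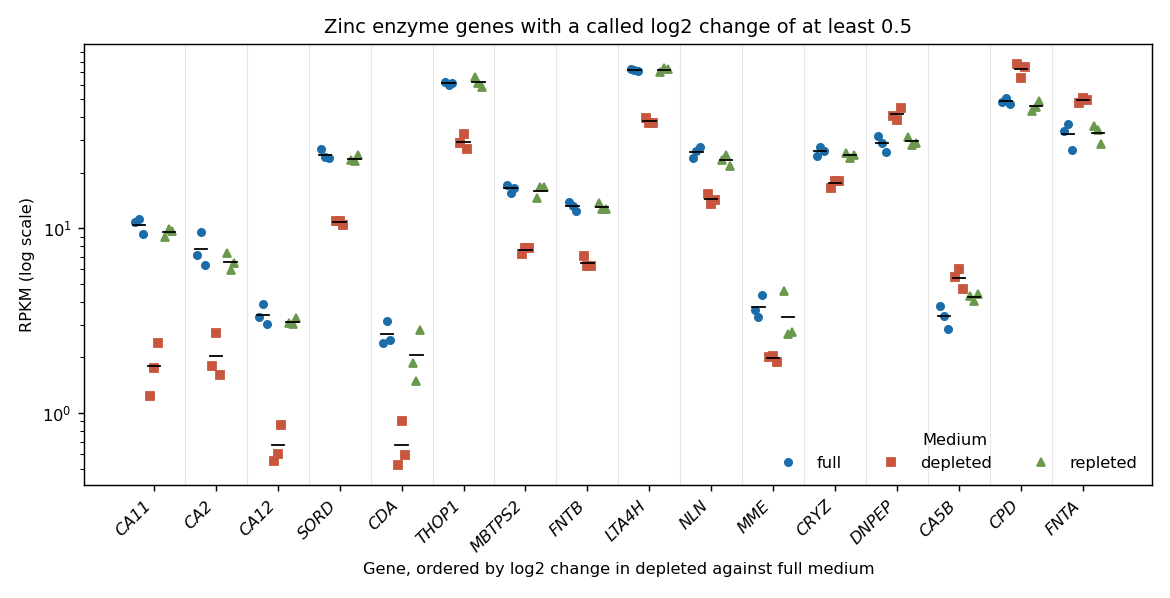
RPKM (log scale) of the 16 members with a called log2 change of at least 0.5 in depleted against full medium, ordered by that change. Points are libraries (3 per medium), black lines are group means. The 12 genes on the left, from CA11 to CRYZ, lie lower in the depleted libraries and the 4 on the right lie higher. Most repleted points sit near the full ones. Those of CA5B lie between the full and depleted points, as do most of those of CDA and MME.

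**Figure D2:**
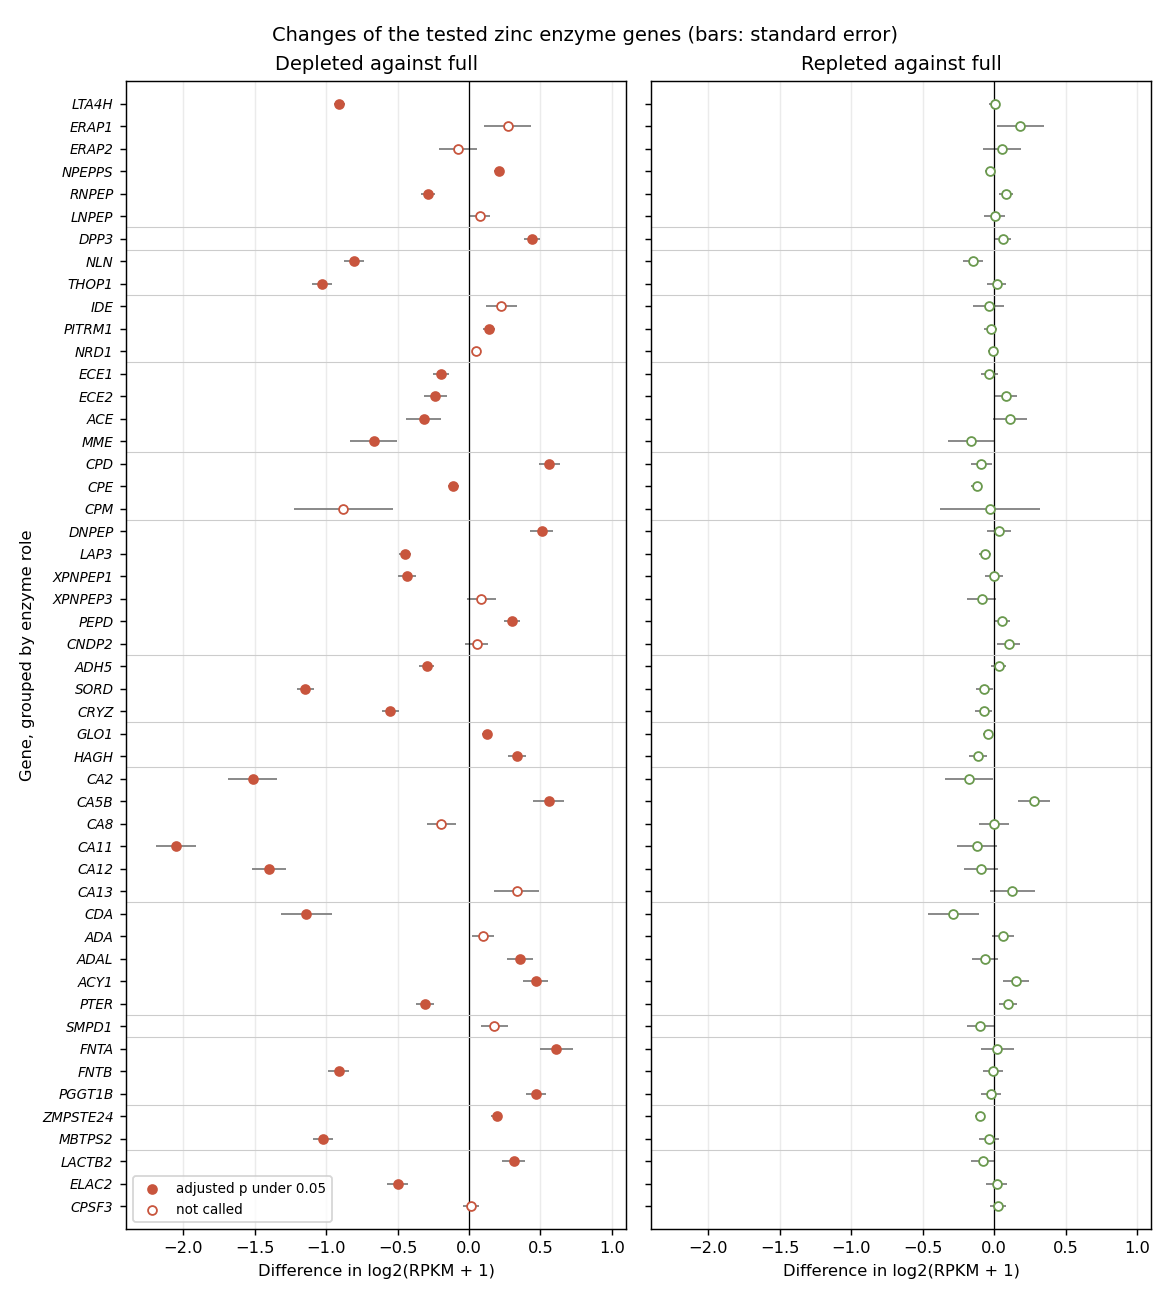
Difference in log2(RPKM + 1) of the 50 tested members, grouped by enzyme role, for depleted against full medium (left) and repleted against full medium (right), with the standard error as a bar. Filled points have an adjusted p under 0.05 in limma: 37 on the left and 0 on the right.

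Among the M1 aminopeptidases, which take single residues from the start of peptides, LTA4H fell and the others moved little. LTA4H, which makes leukotriene B4 and also trims peptides, was at 72.5, 72.4 and 71.1 RPKM in full, 39.5, 37.0 and 37.3 in depleted, and 70.1, 73.9 and 72.7 in repleted medium. Every depleted library lay below every other library, 1.9-fold lower than full medium in the means (log2 change -0.91 ± 0.04 SE, adjusted p = 7.76e-08). RNPEP, an aminopeptidase for arginine and lysine ends, fell from 52.9 ± 1.95 to 43.2 ± 1.91 RPKM. NPEPPS, the puromycin-sensitive aminopeptidase of the cytosol, rose from 75.9 ± 2.9 to 87.9 ± 0.818 RPKM, with no overlap of the groups. ERAP1 and ERAP2, which trim peptides for MHC class I in the endoplasmic reticulum, were not called, at 6.72 ± 0.698 and 8.47 ± 2.35 RPKM for ERAP1 and 5.03 ± 0.852 and 4.72 ± 0.797 for ERAP2 in full and depleted medium. Without depleted replicate 1, the lowest of its group, ERAP1 was called (log2 change 0.43, adjusted p = 0.0339). ERAP1 shares exon bases with CAST on the opposite strand, whose level was 63.4 RPKM in full medium, and whether reads were counted by strand is not given in the sources used here. LNPEP, the insulin-regulated aminopeptidase of transport vesicles, was not called (5.21 ± 0.16 and 5.54 ± 0.208 RPKM). DPP3, a cytosolic dipeptidyl peptidase, rose from 28.9 ± 1.22 to 39.5 ± 0.616 RPKM (log2 change 0.44 ± 0.06 SE, adjusted p = 0.000119).

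Both M3 oligopeptidases fell. These enzymes cut short peptides such as neurotensin and bradykinin in the interior. THOP1 was at 62.17, 59.97 and 61.4 RPKM in full, 29.1, 32.5 and 26.9 in depleted, and 66.1, 61.6 and 58.3 in repleted medium. The depleted libraries were all below the rest, 2.07-fold lower than full medium (log2 change -1.03 ± 0.07 SE, adjusted p = 1.37e-06). NLN, neurolysin, was at 24.1, 26.1 and 27.7 RPKM in full, 15.3, 13.6 and 14.3 in depleted, and 23.4, 24.9 and 21.8 in repleted medium. Again the depleted libraries did not overlap the others (1.8-fold lower, log2 change -0.81 ± 0.07 SE, adjusted p = 8.13e-06). The summed level of both genes was 87.1 ± 1.67 RPKM in full and 43.9 ± 2.53 in depleted medium.

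The M16 peptidases, which enclose their substrate in a chamber, showed only small differences. PITRM1, which degrades cleaved presequences in mitochondria, rose from 43.9 ± 0.354 to 48.5 ± 2.38 RPKM (adjusted p = 0.0174, and 0.0651 without depleted replicate 2). IDE, the insulin-degrading enzyme, was at 19.5 ± 2.57 and 22.9 ± 1.53 RPKM and was not called (adjusted p = 0.0929, and 0.0309 without full replicate 1). NRD1, nardilysin, was at 71.2 ± 1.27 and 73.8 ± 1.92 RPKM and was not called either.

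All 4 genes of the M13 and M2 ectopeptidases were lower in depleted medium, most of them by little. MME, neprilysin, which degrades peptides at the cell surface, was at 3.6, 3.29 and 4.36 RPKM in full, 2.01, 2.03 and 1.89 in depleted, and 4.57, 2.66 and 2.73 in repleted medium. The depleted libraries were below all others, and repleted replicate 1 stood above its 2 partners. The mean was 1.9-fold lower than in full medium (log2 change -0.67 ± 0.17 SE, adjusted p = 0.00622). The difference from repleted medium was called (adjusted p = 0.0235) but not without repleted replicate 1 (log2 difference -0.31, adjusted p = 0.0579) or depleted replicate 3 (adjusted p = 0.0616). ECE1 and ECE2, which release endothelin from its precursor, went from 19.5 ± 1.19 to 16.9 ± 0.725 and from 7.80 ± 0.45 to 6.47 ± 0.25 RPKM (adjusted p = 0.0138 and 0.0306). ACE, the angiotensin-converting enzyme, went from 3.50 ± 0.362 to 2.61 ± 0.208 RPKM (adjusted p = 0.0449). The calls of these 3 genes depended on single libraries and on scaling, with the direction kept: all 3 were lost after median centring. ECE1 was at an adjusted p of 0.0534 without full replicate 3. ECE2 was at 0.0614 to 0.102 without full replicate 1 or 2 or depleted replicate 2 or 3. ACE was at 0.0549 to 0.138 without full replicate 2 or 3, repleted replicate 2 or any depleted replicate.

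The carboxypeptidases of family M14 did not move together. CPD, a carboxypeptidase of the trans-Golgi network, was at 48.4, 50.5 and 47.1 RPKM in full, 77.5, 64.9 and 75.2 in depleted, and 42.9, 45.1 and 49.2 in repleted medium. The depleted libraries were all above the others (1.49-fold higher, log2 change 0.56 ± 0.07 SE, adjusted p = 0.000106). CPE, which finishes peptide hormones in secretory granules, was at 84.9 ± 2.93 RPKM in full, 78.5 ± 2.06 in depleted and 78.0 ± 2.1 in repleted medium. Its small fall against full medium was called (adjusted p = 0.0302), but depleted and repleted medium did not differ (log2 difference 0.01 ± 0.04 SE). The call was lost without full replicate 1 or 2 or depleted replicate 1 or 3 (adjusted p = 0.0734 to 0.104). Median centring (log2 change -0.065, adjusted p = 0.228) or testing without a filter (0.0519) ended the call too. CPM, carboxypeptidase M of the cell surface, was at 0.68, 1.30 and 3.50 RPKM in full, 0.58, 0.54 and 0.15 in depleted, and 1.35, 1.01 and 2.46 in repleted medium. No depleted library reached the lowest full library, but the spread among full libraries was wide and the change was not called (adjusted p = 0.0517). The change was called without full replicate 1 (adjusted p = 0.0149) or repleted replicate 3 (0.048), and with a pseudocount of 0.1 (0.0345). An exon of CPM overlaps MDM2 on the opposite strand (69.5 RPKM in full and 95.5 in depleted medium).

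The exopeptidases that use a pair of metal ions were split. DNPEP, which removes acidic residues, was at 31.8, 29.1 and 25.8 RPKM in full, 40.76, 38.66 and 44.96 in depleted, and 31.2, 28.3 and 29.1 in repleted medium. All depleted libraries lay above the others (1.43-fold higher, log2 change 0.51 ± 0.08 SE, adjusted p = 0.000451). PEPD, prolidase, which frees proline from dipeptides, rose from 25.8 ± 1.32 to 31.9 ± 1.35 RPKM. LAP3, leucine aminopeptidase, fell from 50.02 ± 1.15 to 36.4 ± 1.18 RPKM, and XPNPEP1, the cytosolic aminopeptidase P, fell from 39.6 ± 3.63 to 29.1 ± 0.764. XPNPEP3, its mitochondrial relative, and CNDP2, a cytosolic dipeptidase, were not called, at 8.52 ± 0.946 and 9.07 ± 0.601 RPKM and at 26.8 ± 2.43 and 27.8 ± 1.09 RPKM in full and depleted medium. Prolidase and aminopeptidase P are best known as manganese enzymes, and 1 of these genes rose, 1 fell and 1 was not called.

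All 3 genes of the medium-chain dehydrogenase family fell. SORD, a zinc enzyme that oxidises sorbitol to fructose, was at 26.78, 24.38 and 24.04 RPKM in full, 10.96, 10.98 and 10.39 in depleted, and 23.3, 23.2 and 25.1 in repleted medium. The depleted libraries lay far below the rest with little spread (2.33-fold lower, log2 change -1.15 ± 0.06 SE, adjusted p = 2.44e-07). AC091117.1, annotated antisense to SORD, went from 7.503 to 2.927 RPKM. The genes share 426 exon bases, and reads from these bases cannot be told apart without strand. CRYZ, a quinone reductase of the same family that lacks the catalytic zinc, was at 24.8, 27.7 and 26.1 RPKM in full, 16.5, 18.1 and 18.1 in depleted, and 25.5, 24.04 and 24.9 in repleted medium. Here too the depleted libraries did not overlap the others (1.49-fold lower, log2 change -0.55 ± 0.06 SE, adjusted p = 2.9e-05). TYW3 on the opposite strand shares exon bases with CRYZ and went from 24.8 to 11.6 RPKM. ADH5, which clears formaldehyde as its glutathione adduct, fell from 91.8 ± 4.28 to 74.5 ± 3.66 RPKM.

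Both glyoxalases, which turn methylglyoxal into lactate in successive steps, rose by little. GLO1, the zinc enzyme of the first step and the most abundant member, rose from 300.3 ± 4.58 to 328 ± 3.61 RPKM (adjusted p = 0.00789). HAGH, the hydrolase of the second step, rose from 56.2 ± 1.71 to 71.4 ± 3.19 RPKM (adjusted p = 0.00114). For both genes, all depleted libraries were above all full and all repleted libraries. FAHD1 on the opposite strand shares exon bases with HAGH and went from 22.3 to 24.2 RPKM.

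The carbonic anhydrases, which interconvert carbon dioxide and bicarbonate, held the largest changes among the members. CA11, a related protein thought to lack the activity, was at 10.8, 11.3 and 9.33 RPKM in full, 1.24, 1.76 and 2.39 in depleted, and 9, 9.89 and 9.7 in repleted medium. No depleted library came near the others (5.82-fold lower, log2 change -2.05 ± 0.14 SE, adjusted p = 1.59e-06). CA2, the fast cytosolic enzyme, was at 7.16, 9.60 and 6.29 RPKM in full, 1.80, 2.71 and 1.60 in depleted, and 7.34, 5.97 and 6.50 in repleted medium. Depleted libraries were below all others (3.77-fold lower, log2 change -1.52 ± 0.17 SE, adjusted p = 4.24e-05). CA12, an enzyme of the outer cell surface, was at 3.32, 3.88 and 3.03 RPKM in full, 0.55, 0.60 and 0.86 in depleted, and 3.08, 3.05 and 3.25 in repleted medium. Its groups were as clearly apart (5.09-fold lower, log2 change -1.40 ± 0.12 SE, adjusted p = 6.81e-06), on an estimated 222 to 315 reads per full library and 45 to 61 per depleted library. The summed level of these 3 genes was 21.6 ± 3.05 RPKM in full, 4.503 ± 0.799 in depleted and 19.3 ± 0.304 in repleted medium.

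CA5B, the mitochondrial form, went the other way. It was at 3.81, 3.33 and 2.86 RPKM in full, 5.44, 5.99 and 4.69 in depleted, and 4.30, 4.04 and 4.40 in repleted medium. The repleted libraries fell between the other groups without overlap, so that depleted against full medium was called (1.61-fold higher, log2 change 0.56 ± 0.11 SE, adjusted p = 0.00172) and depleted against repleted was not (adjusted p = 0.0539, and 0.0292 to 0.0477 without depleted replicate 3 or full replicate 1 or 3). Its close copy CA5BP1, with 34.6 RPKM in full and 33.3 in depleted medium, could take or lend reads, so the level of CA5B is uncertain. CA8, another related protein without the activity, and CA13, a cytosolic enzyme, were not called, at 8.18 ± 1.21 and 7 ± 0.641 RPKM and at 1.01 ± 0.095 and 1.55 ± 0.416 RPKM. CA13 was called without depleted replicate 2 (log2 change 0.48, adjusted p = 0.0253). CA9, known for its induction in low oxygen, was listed at 0 in all full and repleted libraries and at 0.36, 0 and 0.19 RPKM in the depleted ones.

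**Figure D3:**
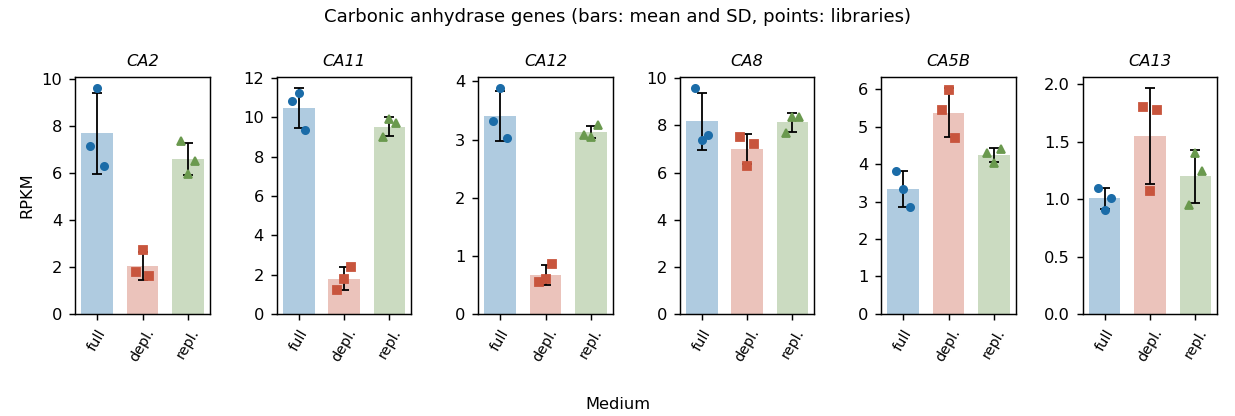
RPKM of the 6 tested carbonic anhydrase genes in full, depleted (depl.) and repleted (repl.) medium, each panel on its own axis. Bars are means with SD, points are the 3 libraries. CA2, CA11 and CA12 are low in depleted medium (means 2.04, 1.80 and 0.67), CA5B is highest there (5.37), and the points of CA8 and CA13 overlap between full and depleted medium.

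Of the deaminases, amidohydrolases and acylases, 2 rose and 2 fell. CDA, which deaminates cytidine for salvage, was at 2.40, 3.15 and 2.48 RPKM in full, 0.52, 0.90 and 0.59 in depleted, and 1.87, 1.48 and 2.81 in repleted medium. The depleted libraries were the lowest (4-fold lower than full, log2 change -1.14 ± 0.18 SE, adjusted p = 0.000399), on an estimated 9 to 15 reads each against 37 to 53 in full libraries, so the fold is imprecise. PTER, a phosphotriesterase-related hydrolase, fell from 8.99 ± 0.46 to 7.07 ± 0.225 RPKM. ADAL, a deaminase of methylated adenosine monophosphate, rose from 6.70 ± 0.821 to 8.84 ± 0.304 RPKM. ACY1, which removes acetyl groups from amino acids, rose from 15.1 ± 0.0737 to 21.4 ± 2.36 RPKM, with ABHD14B on the opposite strand going from 18.8 to 8.02. The readthrough gene ABHD14A-ACY1 shares exons with ACY1 and was at 2.01, 2.08 and 2.07 RPKM in full and 1.34, 1.41 and 4.14 in depleted medium, so the level of ACY1 is uncertain. The difference of ACY1 from repleted medium was called (adjusted p = 0.0128), though not without depleted replicate 2 (0.0513). ADA, adenosine deaminase, was not called, at 11.2 ± 0.782 and 12.1 ± 0.679 RPKM. PKIG on the opposite strand shares exon bases with ADA and went from 22.4 to 8.67 RPKM. GDA, guanine deaminase, stayed between 0.03 and 0.28 RPKM, and DPYS, dihydropyrimidinase, was between 0 and 0.08. SMPD1, the acid sphingomyelinase of lysosomes, was at 8.23 ± 0.17 RPKM in full, 9.43 ± 0.07 in depleted and 7.68 ± 1.26 in repleted medium. Its depleted libraries did not overlap the others, yet it was called only against repleted medium (adjusted p = 0.0305, and 0.134 against full medium), and that call was lost without repleted replicate 1 or 3 or any depleted replicate (adjusted p = 0.0617 to 0.104). Without repleted replicate 2, the call against full medium was made (adjusted p = 0.0307).

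The prenyltransferase subunits moved in opposite directions. FNTA is the alpha subunit that the enzymes for farnesyl and geranylgeranyl groups share, and FNTB (farnesyl) and PGGT1B (geranylgeranyl) are their beta subunits, which carry the zinc. FNTB was at 13.9, 13.2 and 12.3 RPKM in full, 7.08, 6.22 and 6.22 in depleted, and 13.7, 12.7 and 12.8 in repleted medium. Depleted libraries were all lower (2.02-fold, log2 change -0.91 ± 0.07 SE, adjusted p = 3.91e-06). FNTA was at 33.6, 36.6 and 26.7 RPKM in full, 47.7, 50.9 and 49.8 in depleted, and 35.7, 34.0 and 28.4 in repleted medium. Its depleted libraries were all higher (1.53-fold, log2 change 0.61 ± 0.11 SE, adjusted p = 0.00117), the largest rise among the tested members on the log2(RPKM + 1) scale, while CA5B rose more as a ratio of mean RPKM. PGGT1B rose from 14.5 ± 0.648 to 20.5 ± 1.8 RPKM (adjusted p = 0.000315). As a ratio within each library, FNTB was 41.2% ± 5.11 of the FNTA level in full, 13.2% ± 1.43 in depleted and 40.2% ± 4.13 in repleted medium, while PGGT1B was 45.8% ± 6.66, 41.5% ± 3.46 and 44.2% ± 4.67 of it. The FNTB share thus did not overlap between depleted and other libraries, and the PGGT1B share did. The readthrough gene CHURC1-FNTB shares exons with FNTB and went from 5.93 to 2.08 RPKM, so reads may be split between them. AC110275.1 shares exon bases with FNTA on the same strand and went from 5.50 to 7.72 RPKM. Reads of FNTA may be split in the same way, so its level and the shares taken of it are uncertain.

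The metalloproteases embedded in membranes also split. MBTPS2, the site-2 protease that frees SREBP and ATF6 from the Golgi membrane, was at 17.2, 15.6 and 16.6 RPKM in full, 7.22, 7.78 and 7.82 in depleted, and 14.6, 16.8 and 16.6 in repleted medium. The depleted libraries lay below all others (2.16-fold lower, log2 change -1.02 ± 0.07 SE, adjusted p = 1.63e-06). YY2, which lies within MBTPS2 and shares exon bases on the same strand, went from 3.57 to 1.71 RPKM. MBTPS1, the serine protease that makes the first cut of the same substrates and is not a zinc enzyme, rose slightly, from 46.1 ± 1.74 to 51.4 ± 1.24 RPKM. The MBTPS2 level was therefore 35.7% ± 1.09 of MBTPS1 in full, 14.8% ± 0.993 in depleted and 33.0% ± 3.04 in repleted medium. ZMPSTE24, which cuts farnesylated prelamin A, rose from 59.6 ± 2.16 to 68.3 ± 0.775 RPKM and was at 55.6 ± 1.21 in repleted medium, below all full libraries.

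**Figure D4:**
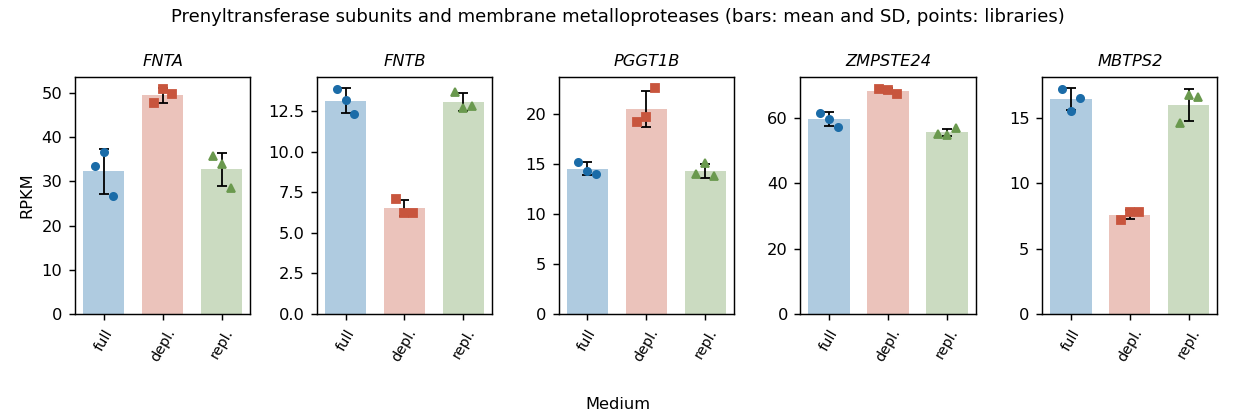
RPKM of the prenyltransferase subunit genes and the membrane metalloprotease genes in full, depleted (depl.) and repleted (repl.) medium, each panel on its own axis. Bars are means with SD, points are the 3 libraries. FNTB (13.1 to 6.51 RPKM) and MBTPS2 (16.5 to 7.61) are low in depleted medium, while FNTA (32.3 to 49.4), PGGT1B (14.5 to 20.5) and ZMPSTE24 (59.6 to 68.3) are high.

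The nucleases of the metallo-beta-lactamase fold each behaved differently. ELAC2, which trims the 3' trailer of transfer RNA precursors, was at 73.0, 72.0 and 70.6 RPKM in full, 53.5, 44.6 and 54.2 in depleted, and 69.95, 70.46 and 78.07 in repleted medium. All depleted libraries were lower, and the log2 change of -0.50 ± 0.07 SE (adjusted p = 0.000259) lay just under the size of 0.5 used above before rounding. LACTB2, a mitochondrial ribonuclease, rose from 15.1 ± 1.26 to 19.0 ± 0.279 RPKM (adjusted p = 0.00706). CPSF3, the endonuclease that cuts messenger RNA precursors before polyadenylation, was not called, at 43.8 ± 2.23 and 44.3 ± 2.2 RPKM, a log2 change of 0.02 ± 0.06 SE.

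Across depleted against full medium, 32 of the 37 called members were called under every alternative tried, and the other 5 were PITRM1, ECE1, ECE2, ACE and CPE. The matching share of all genes was not computed. A further 7 members were called in at least 1 alternative: ERAP1, LNPEP, IDE, NRD1, CPM, CA13 and SMPD1. The spread between libraries was small for most members, with a median coefficient of variation of 5.8% in full, 4.91% in depleted and 6.28% in repleted medium, and it was highest for CPM in all 3 groups.

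Promoter windows of 250 bases before the start, from RefSeq (GRCh38.p14), were searched on both strands for the metal response core TGCACNC or TGCGCNC. Windows were at hand for 43 of the 53 members. The core was found in 22 of 68 member windows (32.4%) and in 24.8% of all 35116 windows. By gene, 4 of 12 members that rose, 8 of 18 that fell and 6 of 11 that were not called held it in any window. The shares over genes were 44.2% of members (19 of 43) and 28.5% of all genes. A gene with more windows has more places for a match. The members had 68 windows for 43 genes and the whole set had 35116 for 27305, so the shares over genes are not on equal terms. LTA4H and THOP1 are shown as examples with a match, picked for it among the members that fell strongly, while the windows of CA12, CDA, MBTPS2, FNTB and NLN held none. MT2A is shown as the metallothionein gene with a known response. Bases just after the start were found near the start of a GENCODE 29 transcript of the gene for LTA4H and THOP1, but not for MT2A. The core is in capitals in each window (5' to 3' on the gene's strand).
LTA4H, chr12:96035588-96035837, minus strand: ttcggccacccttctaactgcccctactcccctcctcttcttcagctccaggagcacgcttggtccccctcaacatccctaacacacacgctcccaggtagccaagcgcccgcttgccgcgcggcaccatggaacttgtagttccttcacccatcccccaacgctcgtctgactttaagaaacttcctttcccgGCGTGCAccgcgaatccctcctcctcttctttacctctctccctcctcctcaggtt
THOP1, chr19:2785253-2785502, plus strand: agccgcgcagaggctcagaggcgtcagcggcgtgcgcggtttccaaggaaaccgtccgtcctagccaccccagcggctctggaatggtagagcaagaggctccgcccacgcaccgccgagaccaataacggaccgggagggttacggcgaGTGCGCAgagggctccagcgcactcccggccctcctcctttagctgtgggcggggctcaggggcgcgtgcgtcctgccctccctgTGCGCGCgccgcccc
MT2A, chr16:56608334-56608583, plus strand: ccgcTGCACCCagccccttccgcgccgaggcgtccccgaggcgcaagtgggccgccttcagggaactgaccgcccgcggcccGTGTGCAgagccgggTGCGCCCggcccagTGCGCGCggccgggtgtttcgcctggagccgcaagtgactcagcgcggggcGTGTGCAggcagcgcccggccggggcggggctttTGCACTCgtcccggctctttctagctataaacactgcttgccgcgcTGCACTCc
The LTA4H window held 1 match, on the reverse strand, the THOP1 window held 2, 1 on each strand, and the MT2A window held 7, 5 forward and 2 reverse, without overlap among them. A match describes these letters alone and marks no site of binding.

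Related genes outside the members were counted in lists. Among 33 tested genes listed as other zinc hydrolases, lyases and oxidoreductases, 19 fell and 6 rose (median log2 change -0.27). The list held LACTB, a serine enzyme, and DPYSL2, which lacks the catalytic metal, and without them 17 of 31 fell and 6 rose. MPI, which makes mannose 6-phosphate, fell from 79.8 ± 5.71 to 16.8 ± 1.93 RPKM, MBLAC2 from 6.12 ± 0.25 to 1.42 ± 0.0569 and DCLRE1A from 12.5 ± 0.405 to 5.55 ± 0.0929. Among 22 tested genes listed as other zinc metallopeptidases, 7 fell and 6 rose (median -0.14). MIPEP, which trims imported mitochondrial proteins, fell from 8.88 ± 0.847 to 2.38 ± 0.435 RPKM, while TMEM27, which has no peptidase domain, rose from 1.197 ± 0.555 to 7.13 ± 0.49. Without TMEM27, 7 of 21 fell and 5 rose. Among 25 tested peptidases with no catalytic zinc, 10 fell and 8 rose (median -0.000884). The serine peptidase PREP fell from 35.2 ± 1.4 to 17.8 ± 0.913 RPKM and the cysteine peptidase BLMH from 89.4 ± 1.93 to 55.0 ± 0.969. Zinc-free peptidases were thus called at 72.0%, the metallopeptidase list at 59.1% (57.1% without TMEM27) and the zinc hydrolase list at 75.8% (74.2% without LACTB and DPYSL2), beside 60.9% of all genes.

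Genes of the pathways in which the members act were counted in the same way, beside 60.9% of all genes called. Of 10 tested genes of acid and bicarbonate transport, which work beside the carbonic anhydrases, 5 fell and 1 rose (60% called). The anion exchanger SLC4A2 fell from 55.4 ± 2.83 to 27.9 ± 2.51 RPKM. Of 11 tested genes of regulated intramembrane proteolysis, where MBTPS2 acts, 5 rose and 3 fell (72.7%): the sterol factors SREBF1 and SREBF2 rose from 11.02 ± 1.71 to 19.9 ± 1.32 RPKM and from 46.6 ± 1.67 to 74.1 ± 0.751, and ATF6 fell from 9.63 ± 0.901 to 4.94 ± 0.895. Of 14 tested genes of prenylation and CAAX processing, 5 rose and 5 fell (71.4%), with the methyltransferase ICMT up from 87.2 ± 3.27 to 126 ± 5.83 RPKM and the farnesylated lamin LMNB1 down from 144 ± 2.22 to 96.2 ± 0.352. Of 14 tested genes around acid sphingomyelinase, 4 rose and 2 fell (42.9%). The cholesterol transporter NPC1 rose from 25.9 ± 1.13 to 78.5 ± 5.3 RPKM.

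Of 16 tested genes of mRNA 3' end cleavage, the machinery of CPSF3, 6 rose and 3 fell (56.2%), with the zinc finger subunit CPSF4 down from 34.5 ± 1.38 to 16.8 ± 0.547 RPKM. Of 15 tested genes of tRNA end processing, 8 fell and 5 rose (86.7%), among them the ribonuclease P subunits RPP25, down from 8.003 ± 0.0666 to 4.48 ± 0.234 RPKM, and RPP40, up from 21.7 ± 1.5 to 35.9 ± 0.854. Of 9 tested genes of methylglyoxal, formaldehyde and polyol metabolism, 4 rose and 4 fell (88.9%). AKR1B1, which makes the sorbitol that SORD oxidises, rose from 191 ± 5.86 to 242 ± 8.53 RPKM. Of 15 tested genes of purine and pyrimidine salvage, 6 fell and 5 rose (73.3%), with the uridine phosphorylase UPP1 up from 16.6 ± 0.601 to 30.4 ± 0.348 RPKM. Of 7 tested genes of peptide loading for MHC class I, 3 rose and 2 fell (71.4%). Those that fell were the peptide transporter genes TAP1 and TAP2, from 8.68 ± 0.212 to 5.49 ± 0.373 and from 21.6 ± 0.547 to 14.6 ± 1.55 RPKM.

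**Figure D5:**
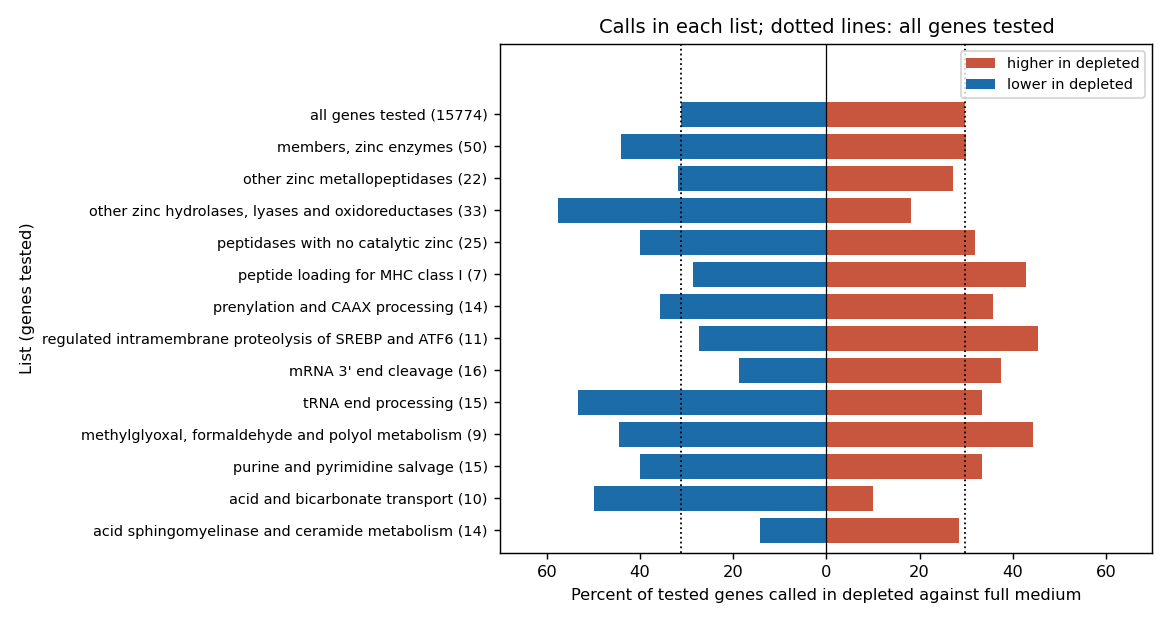
Percent of the tested genes of each list that were higher (right) or lower (left) in depleted against full medium by limma, with the number tested in parentheses. Dotted lines mark all genes tested (29.8% higher, 31.2% lower), and the member bar (15 higher and 22 lower of 50) ends close to the line on the right and past the line on the left.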

How the data were processed

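PolyA RNA of 9 libraries was sequenced from single ends after TruSeq preparation, per the labels' protocols. The authors deposited log2 of RPKM plus 1 per Ensembl gene, per the file headers and values, together with gene lengths. The submitters' processing notes name the aligners BWA (version 0.7.12-r1039) and Bowtie (version 1.0.1), the quantifier RSEM (version 1.2.6), bedtools (version 2.25.0.3) and build hg19, in no stated order, and whether libraries were scaled further is not given in the sources used here. The table held 20320 blank rows and 0 columns of unknown sample. Depth was estimated from the steps of low values of genes 100 to 500 nucleotides long, where 57.6% to 64.7% of values were whole reads within 0.1 read. Counts were not recovered, so reads per gene are approximate and limma 3.58.1 (R 4.3.3) with a variance trend was used, with 1 mean per group over all 9 libraries, a pseudocount of 1, a filter of 1 RPKM in 3 libraries and Benjamini-Hochberg adjustment at 0.05. The model was also run on simulated data in which far fewer genes changed than were called here. That run is no check of the counts reported.

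Members and lists were chosen with earlier results of these data known. Every member is named by role, with full statistics where the call was without overlap and at least 0.5 on the log2 scale; of each list, up to 4 genes with the smallest p were eligible, and MBTPS1, DPYSL2, genes that overlap members and the counts without LACTB, DPYSL2 and TMEM27 were added after their values were seen. Gene overlaps follow GENCODE 29, a later build than the values, by name only. An exact permutation test of 3 against 3 libraries cannot go below 0.1 and was not used. Alternatives were another pseudocount, filters, scalings, libraries and threshold, and the replicate number as a block. Some genes of the lists are not reported here.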

Additional observations from a re-analysis of the deposited data

How the results depend on the processing

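The members called ranged from 32 to 38 over the alternatives in depleted against full medium (37 in the analysis reported). They ranged from 31 to 39 in depleted against repleted medium (36). In repleted against full medium they stayed at 0, and 0 calls were reversed in any comparison. All genes called ranged from 7604 to 9757 in the first comparison (9611 in the analysis reported). In the second they ranged from 7541 to 9558 (9574). The 5 genes of the whole table called in repleted against full medium became 3 with a pseudocount of 0.1, 2 without a filter, 2 with only the 6 libraries compared and 1 at a threshold of 0.01, and leaving out 1 library gave between 1 and 9. Such small counts rest on few genes.

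With the replicate number as a block, the members called were 35, 36 and 0, and all genes called were 9511, 9472 and 2, first for depleted medium against full, then against repleted, and last for repleted against full medium. Residuals of libraries with the same number correlated at -0.0144 to 0.0726, and those with other numbers at -0.0609 to 0.0416. These values cannot show whether libraries with the same number shared a culture. The titles give only a number and name no shared culture, so the libraries are not treated as pairs. The block ended the calls of ACE and CPE against full medium. Members near 1 RPKM, such as CDA, CA12 and CPM, rest on few reads, and their changes depend most on the pseudocount (CPM, -0.88 on the log2 scale, was -1.73 with a pseudocount of 0.1).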
